A study of Mus musculus with 2 samples.

Results

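The immunoglobulin heavy chain variable genes (Ighv, or V genes) were followed in B cells sorted from the mouse heart. All feature rows whose symbol starts with Ighv were taken, which gave 185 of 31053 gene rows and 183 symbols, because Ighv5-8 and Ighv1-13 each have 2 rows. Their unique molecular identifiers (UMIs, each marking 1 captured RNA molecule) were summed over droplets with at least 2000 gene UMIs, at most 10% mitochondrial UMIs and a UMI of Cd79a, the signaling chain of the B cell receptor. This kept 2077 neonatal and 3611 adult droplets, and the B cell genes Cd79b and Ms4a1 (CD20) had a UMI in 99.5% and 97.4% of the neonatal and in 99.4% and 95.6% of the adult ones. Hearts came from C57BL6/J mice that were either 2 weeks old, males and females pooled (the sample title gives 15 days), or 8 weeks old, males only. In each group the hearts of 6 mice were pooled and sorted for B cells by flow cytometry, with both ages sorted on the same day. Each age was sequenced as 1 library with 3′ Chromium v3 chemistry, so age, sex, pool and library cannot be told apart, no test across samples is possible, and every interval below is an exact 95% interval for counting error only.

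A B cell makes its heavy chain gene by joining a V, a D and a J segment, so most B cells express a single V gene. V genes are grouped into families by sequence. In the mouse locus the families Ighv5 and Ighv2 lie nearest to the D, J and constant genes (proximal), the large Ighv1 family and Ighv8 lie farthest (distal), and the smaller families lie mostly between them. Early in life the proximal genes are known to be rearranged often, above all Ighv5-2, also called VH81X. B1 cells are a self-renewing population of early origin that is known for recurrent receptors, among them those of Ighv11-2 and Ighv12-3, which bind the membrane lipid phosphatidylcholine, and of Ighv7-1, the V gene of the T15 antibodies against phosphorylcholine.

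All 185 rows matched an entry of the GENCODE M21 annotation (GRCm38) on chromosome 12, 183 on the minus strand and 2 on the plus strand (1 of the 2 rows each of Ighv5-8 and Ighv1-13), from Ighv5-1 at 113572927 to Ighv1-86 ending at 116010093, a span of 2.44 Mb. The annotation calls 70 rows pseudogenes. Members of a family can differ by very few bases, which bears on how reads are split between them. The last 150 coding bases of 6 V genes named in the results below are given from the GENCODE M21 transcripts, in the sense of the gene. Ighv11-2 (chr12:114048241-114048390), the phosphatidylcholine-binding gene, is set beside its only family partner Ighv11-1 (chr12:113981879-113982028). Capitals mark the 2 of these 150 bases at which they differ.
Ighv11-2: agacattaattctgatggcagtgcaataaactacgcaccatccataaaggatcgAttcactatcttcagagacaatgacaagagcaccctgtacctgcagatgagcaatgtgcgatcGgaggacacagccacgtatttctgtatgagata
Ighv11-1: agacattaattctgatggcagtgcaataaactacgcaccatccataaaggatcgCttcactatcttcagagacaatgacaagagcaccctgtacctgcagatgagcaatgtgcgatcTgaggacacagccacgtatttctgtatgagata
Ighv4-1 (chr12:113948282-113948431) is the V gene with the lowest adult to neonatal ratio among those with at least 50 UMIs. It is set beside Ighv11-1, the nearest to it over these bases among V genes with an annotated coding part. Pseudogenes, among them the other family member Ighv4-2, were not compared. Capitals mark the 32 differing bases.
Ighv4-1: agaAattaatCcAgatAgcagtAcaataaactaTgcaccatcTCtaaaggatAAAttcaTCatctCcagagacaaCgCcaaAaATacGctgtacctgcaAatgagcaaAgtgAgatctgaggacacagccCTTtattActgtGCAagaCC
Over the last 150 coding bases Ighv1-26 (chr12:114788372-114788521), the V gene with most UMIs, and Ighv1-22 (chr12:114746273-114746422) differ at the 5 in capitals. Ighv1-18 (chr12:114682632-114682781) has in capitals the 2 of these bases at which it differs from Ighv1-26.
Ighv1-26: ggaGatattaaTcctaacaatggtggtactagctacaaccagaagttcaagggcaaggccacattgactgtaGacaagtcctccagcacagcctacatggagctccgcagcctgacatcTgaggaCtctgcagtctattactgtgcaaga
Ighv1-22: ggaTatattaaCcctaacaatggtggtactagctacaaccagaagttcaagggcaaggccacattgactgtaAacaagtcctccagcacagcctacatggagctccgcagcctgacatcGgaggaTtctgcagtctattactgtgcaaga
Ighv1-18: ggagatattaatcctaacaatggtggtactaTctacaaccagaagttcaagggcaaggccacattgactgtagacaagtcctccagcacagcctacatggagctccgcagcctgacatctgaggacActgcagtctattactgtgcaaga
Of all 91-base windows of Ighv11-2, 80.6% are found in no other Ighv transcript. The share was 88.9% for Ighv1-26, 92.9% for Ighv4-1, and every window of Ighv1-22 and Ighv5-17 was unique. Among the 115 V genes not called pseudogenes, 64 have only unique windows and 3 have fewer than 50%. The number of UMIs had almost no rank correlation with the share of unique windows (Spearman's rho = 0.10 across 115 V genes, which share both libraries and are not independent replicates).

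Reads of V genes are rare in a 3′ library, because most reads come from the constant gene at the end of the transcript. The neonatal droplets held 886 Ighv UMIs among 16403180 gene UMIs (54.0 CPM, UMIs scaled to a library total of 1000000) and the adult droplets 2273 among 34623240 (65.6 CPM). The log2 ratio of adult to neonatal was 0.28 (95% interval 0.17 to 0.40). Set against the UMIs of the heavy chain constant genes of the same droplets, the Ighv UMIs came to 1.09% in neonatal and 1.61% in adult droplets. An Ighv UMI was present in 30.3% of neonatal droplets (630 of 2077, Clopper-Pearson interval 28.4 to 32.4) and in 39.5% of adult droplets (1425 of 3611, 37.9 to 41.1). These droplets were deeper than those without an Ighv UMI, with medians of 6438 against 5851 gene UMIs in neonatal and 8028 against 5322.5 in adult droplets. In near-empty droplets, which hold free RNA, there were 0.00213 neonatal and 0.00358 adult Ighv UMIs per droplet. The kappa light chain V genes (Igkv) had a log2 ratio of -0.10 (-0.19 to -0.01).

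Of the 183 V genes, 113 had a UMI in at least 1 library, 90 had one in both, and 70 were at 0 in both. Among the 115 V genes not called pseudogenes 101 were detected. Of the 70 pseudogene rows 12 had a UMI, led by Ighv1-2 (7 neonatal and 2 adult UMIs), and pseudogenes made up 1.81% of neonatal and 0.924% of adult Ighv UMIs. The 23 V genes with at least 50 UMIs over both libraries held 57.1% of the 3159 Ighv UMIs. The 4 Ighj and 17 D segment rows had no UMI. A B cell as a rule expresses 1 productive heavy chain rearrangement, so the UMIs of a droplet are not independent, and 2 measures of use were set beside the UMIs. A droplet was given a majority V gene when that gene held over 50% of its Ighv UMIs (601 neonatal and 1256 adult droplets), and was called assigned when that gene also had at least 2 UMIs (131 and 322 droplets).

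Distal families made up more of the adult than of the neonatal heavy chain repertoire. Ighv1 and Ighv8 together were the majority V gene in 48.4% of neonatal droplets (291 of 601, 44.4 to 52.5) and in 59.6% of adult droplets (749 of 1256, 56.9 to 62.4), and these intervals do not overlap. The proximal families Ighv2 and Ighv5 held 17.5% of neonatal droplets (105, 14.5 to 20.7) and 13.2% of adult droplets (166, 11.4 to 15.2), with intervals that overlap and a log2 ratio of -0.40 (-0.76 to -0.04). The interval of this ratio crossed 0 at a minimum of 5000 gene UMIs (-0.28, -0.72 to 0.16). It also did at a limit of 15% mitochondrial UMIs (-0.35, -0.70 to 0.01). By UMIs the proximal share was 21.6% (18.9 to 24.4) against 14.2% (12.8 to 15.7). This wider gap rested in part on 2 neonatal droplets with 20 Ighv5-17 UMIs each, both at barcodes that also held at least 500 gene UMIs in the adult library. Without the droplets at such shared barcodes the neonatal proximal share by UMIs was 17.2% and the log2 ratio was -0.29 (-0.59 to 0.01). Over assigned droplets the shares were 20.6% (27 of 131) and 13.98% (45 of 322), and the log2 ratio of -0.56 had an interval across 0 (-1.28 to 0.18). The intermediate families held 34.1% of neonatal and 27.1% of adult majority droplets.

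The order along the locus was also compared without family names. Counting from the end nearest to the constant genes, the V gene at which cumulative use passed 50% of UMIs was the 75th row, Ighv1-2, in the neonatal library and the 98th row, Ighv1-18, in the adult library. By majority droplets it was the 76th row, Ighv10-1, and again the 98th. The 60 V genes nearest to the constant genes held 42.3% of neonatal and 33.2% of adult UMIs, while the 62 farthest held 25.3% and 35.5%. Of 10 bins of rows along the locus, the bin from Ighv2-6 to Ighv4-1, with Ighv5-17 and the 40 UMIs of its 2 neonatal droplets above, held 16.6% of neonatal and 9.77% of adult UMIs, and the farthest bin, from Ighv8-13 to Ighv1-86, stood at 7.11% and 12.8% (log2 ratio 0.85, 0.46 to 1.27). The bin nearest to the constant genes, from Ighv5-1 to Ighv5-12, held 9.26% and 6.47%. The next bin after Ighv4-1, from Ighv3-1 to Ighv7-4, went the other way, with 9.71% of neonatal and 12.6% of adult UMIs (log2 ratio 0.37, 0.02 to 0.74).

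**Figure D1:**
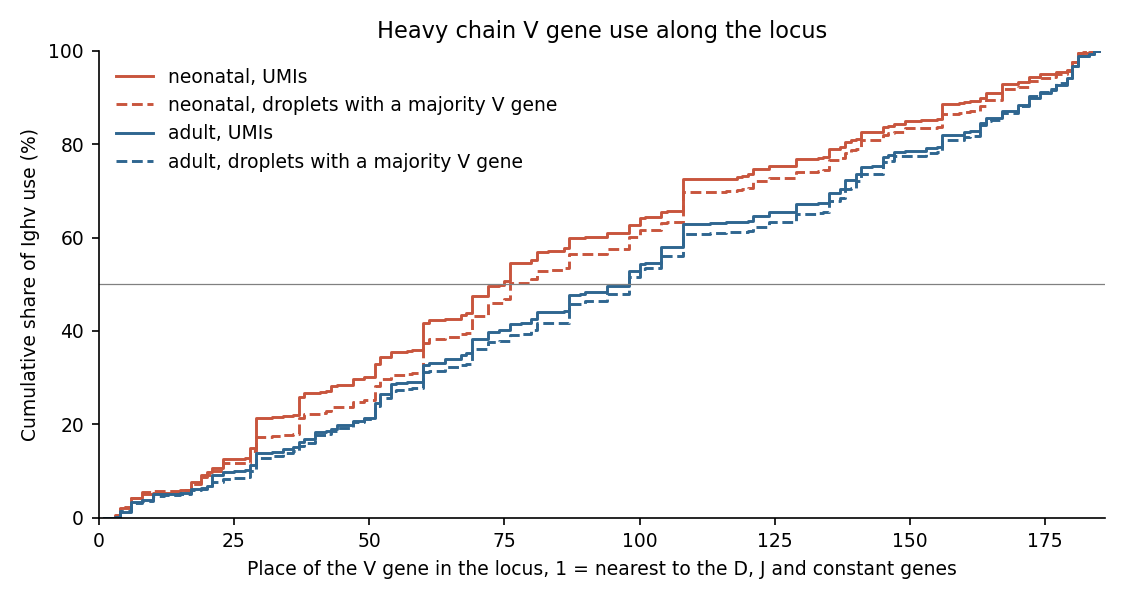
Cumulative share of Ighv UMIs (solid lines) and of droplets with a majority V gene (dashed lines) in percent, over the V genes in their order in the locus, for the neonatal and the adult library. The neonatal lines lie above the adult lines over most of the locus, and 50% of UMIs is passed at row 75 for neonatal and at row 98 for adult droplets.

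Among the families, Ighv1 was the largest at both ages, with 45.1% of neonatal (271 droplets, 41.1 to 49.2) and 55.5% of adult majority droplets (697, 52.7 to 58.3). Ighv14, a small family of 4 genes, held 1.498% of neonatal droplets (9, 0.687 to 2.82) and 4.14% of adult droplets (52, 3.11 to 5.39), a log2 ratio of 1.47 (0.43 to 2.67). Its intervals do not overlap, and neither do those of Ighv1 and Ighv4. By gene the majority droplets were 1 and 4 for Ighv14-1, 1 and 20 for Ighv14-2, 1 and 9 for Ighv14-3, and 6 and 19 for Ighv14-4. Over assigned droplets Ighv14 stood at 2 neonatal (1.53%) and 6 adult ones (1.86%), a log2 ratio of 0.29 (-2.20 to 3.63). Ighv4, whose only gene not called a pseudogene is Ighv4-1, held 3.49% of neonatal droplets (21, 2.18 to 5.29) and 1.19% of adult droplets (15, 0.670 to 1.96). Ighv10 stood at 5.16% and 2.71%, and Ighv3 at 8.49% and 5.41%. For Ighv5 the droplet shares were 10.6% (8.30 to 13.4) and 8.76% (7.25 to 10.5), and for Ighv2 they were 6.82% (4.94 to 9.14) and 4.46% (3.39 to 5.75), so neither proximal family alone stood apart beyond counting error. Ighv16 had no UMI in either library.

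**Figure D2:**
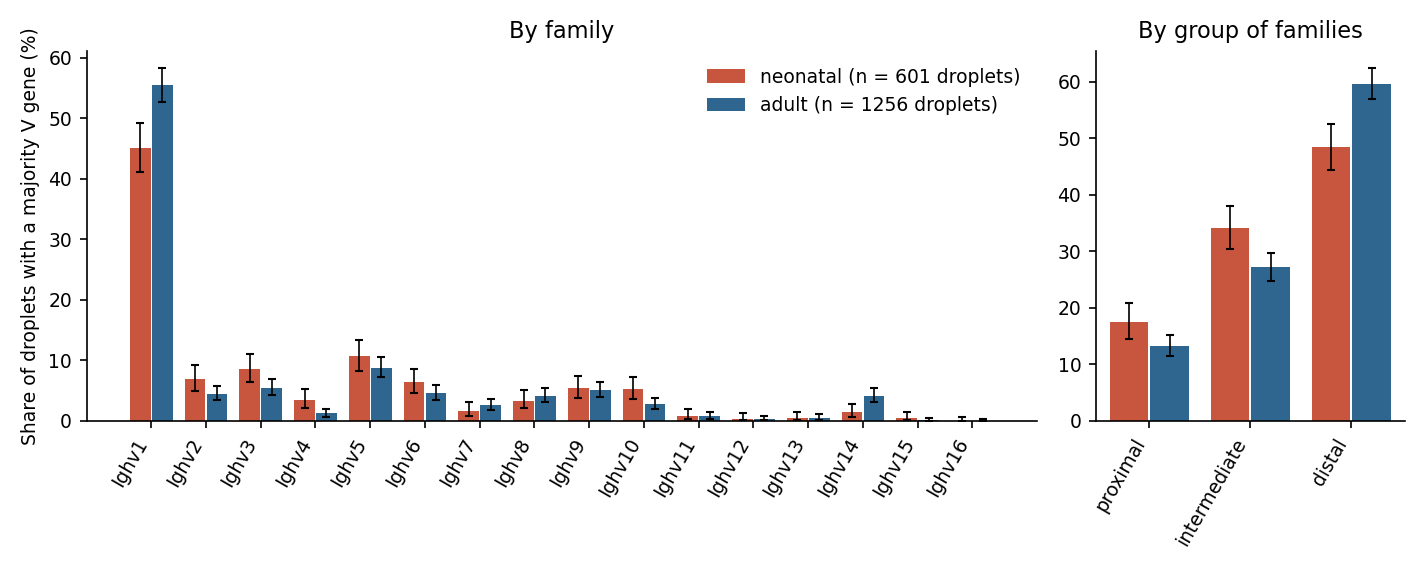
Share of droplets with a majority V gene, in percent, by V gene family (left) and by proximal (Ighv2, Ighv5), distal (Ighv1, Ighv8) and intermediate families (right), with exact 95% intervals as error bars. Ighv1 stands at 45.1% in neonatal and 55.5% in adult droplets, and Ighv4 at 3.49% and 1.19%.

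For single V genes, called means a CPM ratio of at least 2 between the libraries, since no test is possible. Among the 23 V genes with at least 50 UMIs, 6 were past this fold toward the adult library, where 3.25% of all 10703 genes with at least 50 UMIs were, and 3 toward the neonatal library, where 3.96% of all genes were. Genes of few UMIs pass a fold more often: among all 1658 genes with at most 170 UMIs, the largest count of a V gene, the shares were 9.47% and 12.6%. The 6 were Ighv1-18, Ighv1-22, Ighv1-53, Ighv14-4, Ighv5-9-1 and Ighv8-8, and the 3 were Ighv10-1, Ighv4-1 and Ighv5-17. The median log2 CPM ratio was 0.45 over the 23 V genes and -0.13 over all genes. This median and the numbers 6 and 3 depend in part on the limit of 50 UMIs, which counts both libraries together. The adult library held 2273 of the 3159 Ighv UMIs, so V genes high in it pass that limit more easily. By share of Ighv UMIs, which sets the total of each library aside, 4 and 3 V genes were past 2-fold.

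Counting droplets in place of UMIs, 3 of these 9 V genes were at least 2-fold apart in the same direction, and in 5 of the 9 a single droplet held 10 or more UMIs. Ighv4-1 was the majority V gene of 20 neonatal droplets (3.33%) and 15 adult droplets (1.19%), with a log2 ratio of -1.48 (-2.55 to -0.44), and no droplet held more than 3 of its UMIs. Ighv10-1 stood at 20 neonatal and 16 adult droplets (3.33% and 1.27%, log2 ratio -1.39, -2.43 to -0.36). Ighv8-8 went the other way, with 6 neonatal and 31 adult droplets (0.998% and 2.47%, log2 ratio 1.31, 0.02 to 2.86). These 3 V genes were past 2-fold by CPM and by majority droplets. Over assigned droplets Ighv4-1 stood at 10 neonatal (7.63%) and 3 adult ones (0.932%), and Ighv8-8 at 0 and 6 (1.86%). Ighv10-1 stood at 2 (1.53%) and 4 (1.24%), which is not 2-fold apart.

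For the other called V genes the droplet ratio was smaller. Ighv5-17 had 58 neonatal and 55 adult UMIs, of which 40 neonatal UMIs lay in 2 droplets, and it was the majority V gene of 18 and 33 droplets, a log2 ratio of -0.19 (-1.06 to 0.73). Ighv5-9-1 had 7 neonatal and 52 adult UMIs in 5 and 13 droplets, with up to 27 UMIs in 1 adult droplet, and its droplet ratio was 0.32 on the log2 scale (-1.26 to 2.16). Ighv1-22 had 11 and 76 UMIs, 29 of them in 1 adult droplet, and 9 and 32 majority droplets (log2 ratio 0.77, -0.33 to 2.02). Ighv14-4 had 10 and 46 UMIs with 20 in 1 adult droplet, and 6 and 19 majority droplets. Ighv1-18 was spread over many droplets, with 16 UMIs in 16 neonatal and 74 UMIs in 60 adult droplets, and a droplet ratio of 0.58 (-0.28 to 1.53).

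**Figure D3:**
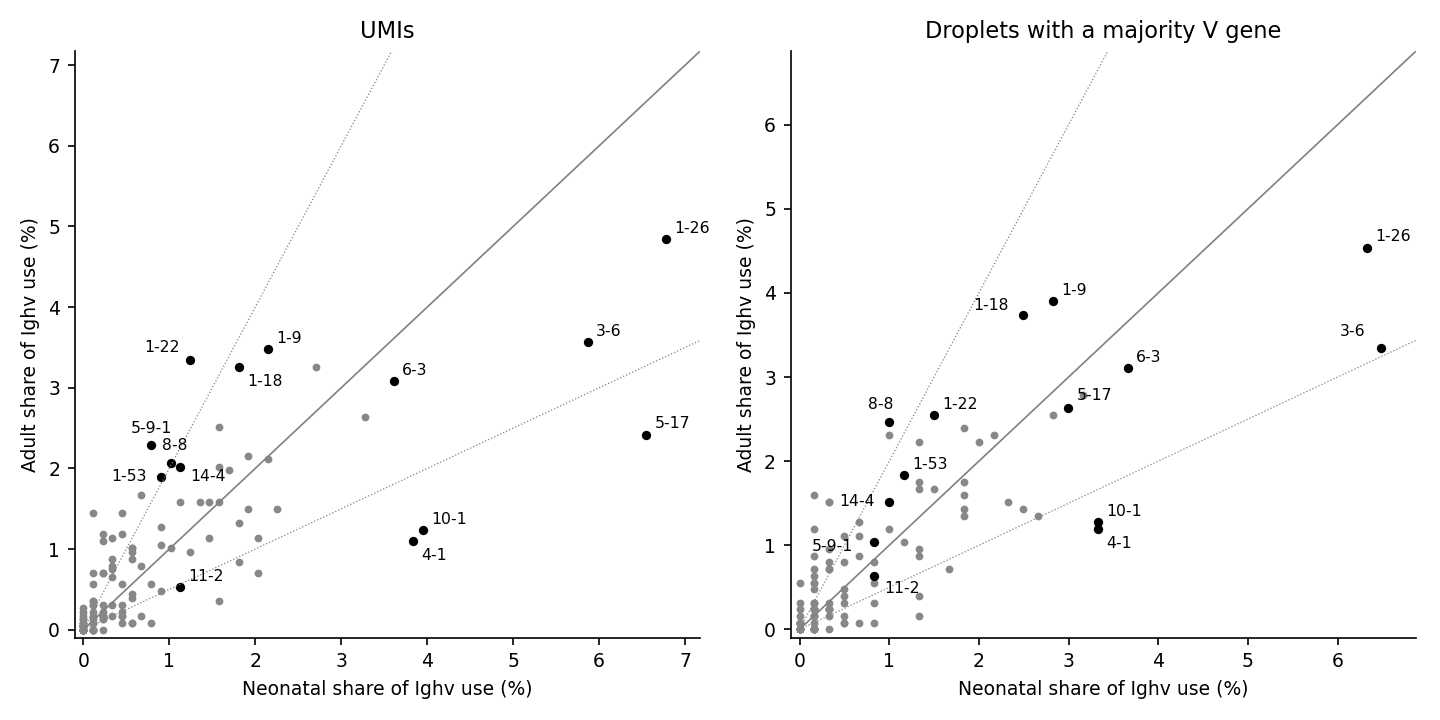
Each point is a V gene, placed by its share in percent of neonatal (x) and adult (y) Ighv use, by UMIs (left) and by droplets with a majority V gene (right), with lines of equal share (solid) and of 2-fold (dotted). Labels leave out the prefix Ighv. Ighv5-17 lies below the lower dotted line by UMIs and near the line of equal share by droplets, while Ighv4-1 and Ighv10-1 lie below the dotted line in both.

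The V genes with most assigned droplets were ranked over both libraries, of whose assigned droplets 131 were neonatal and 322 adult, so the adult library weighs more in the ranking. Ighv4-1 had 10 neonatal and 3 adult assigned droplets, as many neonatal ones as Ighv1-26 (10 and 16), while Ighv1-9 had 2 and 16 and Ighv1-81 2 and 11. Ighv1-26 was the most used by UMIs, with 60 neonatal and 110 adult UMIs and 38 (6.32%) and 57 (4.54%) majority droplets. Ighv3-6 had the largest number of neonatal majority droplets, 39 (6.49%, 52 UMIs), close to the 38 of Ighv1-26. Against 42 adult droplets (3.34%, 81 UMIs) its log2 ratio was -0.96 (-1.62 to -0.29). Over assigned droplets Ighv3-6 stood at 7 neonatal (5.34%) and 17 adult ones (5.28%), nearly equal shares. Ighv6-3 stood at 22 and 39 droplets, Ighv9-3 at 19 and 35 and Ighv1-64 at 17 and 32, each with a log2 ratio between -0.24 and -0.15 and an interval across 0. Ighv1-9 (17 and 49 droplets), Ighv1-81 (11 and 30), Ighv1-82 (12 and 28), Ighv1-19 (9 and 21) and Ighv7-3 (8 and 22) had log2 ratios from 0.16 to 0.46, also with intervals across 0. Across the 115 V genes not called pseudogenes, neonatal and adult UMIs had a Spearman's rho of 0.84, as a description, since both values of a gene share its sequence and mapping.

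The V genes named above for early rearrangement or for recurrent B1 cell receptors were rare. Ighv5-2, the most noted early-rearranging gene, had 6 UMIs in 5 neonatal droplets and 4 UMIs in 4 adult droplets, and was the majority V gene of 3 and 1 droplets. Ighv7-1, the T15 gene, had 3 and 15 UMIs (2 and 9 majority droplets, log2 ratio 1.11, -1.17 to 4.36). Ighv12-3 had 4 and 7 UMIs. Ighv11-1 differs from Ighv11-2 at 2 of the last 150 coding bases, printed above. It had 0 neonatal UMIs and 1 adult UMI, against 10 and 12 for Ighv11-2. Ighv1-55 (14 and 36 UMIs) and Ighv1-53 (8 and 43 UMIs), both of the distal Ighv1 family, were among the V genes with at least 50 UMIs. They were the majority V gene of 11 and 20 and of 7 and 23 droplets. The intervals of all these droplet ratios include 0.

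Droplets with many Ighv UMIs were few and mostly had the transcripts of antibody-secreting cells. A total of 3 neonatal and 4 adult droplets held 10 or more Ighv UMIs. Both neonatal Ighv5-17 droplets also had 531 and 775 UMIs of Jchain, the joining chain of secreted IgM and IgA, with Ighm as the leading constant gene (3807 and 3265 UMIs) and Igkv8-30 as the leading light chain V gene (32 and 26 UMIs). In the adult library Igkv8-30 and Ighv5-17 shared no droplet. At these 2 barcodes the neonatal library had 45515 and 38880 gene UMIs and the adult library 1008 and 759, with no Ighv5-17 UMI there. The 4 adult droplets each had another leading kappa gene. Ighv1-22 (29 UMIs) was with Igkv16-104 (50 of 86 Igkv UMIs) and Ighv5-9-1 (27) with Igkv4-57-1 (20 of 20). Ighv14-4 (20) was with Igkv4-70 (39 of 67) and Ighv5-9-1 (12) with Igkv10-95 (17 of 32). Where the Igkv UMIs of other kappa genes in these adult droplets came from was not tested. All 4 adult droplets had 665 to 1021 Jchain UMIs. The Ighv14-4 droplet was led by the switched constant gene Ighg2c (3271 UMIs), the others by Ighm. The remaining neonatal droplet had 13 Ighv10-1 UMIs among 3202 gene UMIs, with no Jchain or Igkv UMI.

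B1-marked droplets were those with a UMI of at least 3 of Bhlhe41, Zbtb32, Ctla4, Cd9, S100a6 and Nid1, a marking that uses no Ighv row. It took 177 neonatal (8.52%) and 580 adult droplets (16.1%). Genes that the marking did not use went with it: Cd5, a surface receptor of B1a cells, was higher in marked than in other droplets by a log2 CPM ratio of 2.34 in neonatal and 3.60 in adult droplets, Itgam (CD11b) by 1.45 and 2.15, and Spn (CD43) by 2.64 and 2.15, while the follicular marker Fcer2a (CD23) was lower by log2 ratios of -2.14 and -1.16. Marked droplets were also much deeper, with medians of 15881 against 5821.5 gene UMIs in neonatal and 16550 against 5150 in adult droplets. A deep droplet is more likely to show 3 of 6 genes, so the Ighv11-2 values below are also given by depth. The T cell list (Cd3e, Cd3d, Cd3g, Trac, Cd4, Cd8a) summed to 19.1 CPM in marked and 4.83 CPM in other neonatal droplets, with Cd4 at 0, and to 15.4 and 5.38 CPM in the adult library, and the 6 macrophage genes to 108 and 76.9 CPM and to 8.35 and 15.6 CPM. The 6 plasma cell genes summed to 1027 and 553.7 CPM and to 776 and 685 CPM, and the 6 erythroid genes to at most 7.78 CPM in any of the 4 sets. Without droplets with a UMI of at least 3 of the 6 macrophage, T cell or erythroid markers, the Ighv11-2 values given next were 8.26% and 1.89% of marked Ighv UMIs.

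Ighv11-2 held a larger share of Ighv UMIs in marked than in other droplets, among droplets of over 10000 gene UMIs. In the neonatal library all 10 Ighv11-2 UMIs lay in marked droplets, 5 droplets in all, so that they made up 8.06% of the 124 marked Ighv UMIs (3.94 to 14.3). The other neonatal droplets had 0 of 762, with an exact interval that ends at 0.483%. A floor of 3 UMIs in place of this 0 would be a share of 0.394%, against which the marked share was 20.5-fold higher. This floor is a convention and not the bound set by the counts. The exact interval of the ratio of marked to other droplets starts lower, at 3.78 on the log2 scale. In the adult library 10 of 541 marked UMIs were of Ighv11-2 (1.85%, 0.890 to 3.37) and 2 of 1732 others (0.115%, 0.0140 to 0.417), a ratio of 16.0 with a log2 interval of 1.77 to 7.23. By majority droplets the shares were 8.20% (5 of 61) and 0 of 540 in the neonatal library, and 2.68% (6 of 224) and 0.194% (2 of 1032) in the adult library. All 5 neonatal droplets had 5 or 6 of the marking genes, and the 10 marked adult droplets had 3 to 6. Every marked Ighv11-2 droplet had over 10000 gene UMIs. Among droplets above that depth, Ighv11-2 made up 10 of 116 marked and 0 of 157 other neonatal UMIs (8.62%, 4.21 to 15.3, and up to 2.32%), and 10 of 514 marked and 0 of 651 other adult UMIs (1.95%, 0.937 to 3.55, and up to 0.565%), with median depths of 17200 and 12329 and of 17795 and 13547 gene UMIs. By majority droplets at this depth the neonatal shares were 9.26% (5 of 54, 3.08 to 20.3) and 0 of 91 (up to 3.97%). The adult shares were 2.97% (6 of 202, 1.10 to 6.35) and 0 of 241 (up to 1.52%). These droplet intervals overlap at both ages, and the ratios of these droplet shares were not computed. Among shallower droplets few marked UMIs were left, and Ighv11-2 was 0 of 8 marked and 0 of 605 other neonatal UMIs and 0 of 27 marked (up to 12.8%) and 2 of 1081 other adult UMIs (0.185%), so no excess in marked droplets was detectable there.

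The neonatal value rested on deep droplets at shared barcodes. The 5 neonatal Ighv11-2 droplets had 71755, 44960, 42447, 21012 and 11864 gene UMIs, and the first 4 lay at barcodes that held 1391, 1012, 962 and 541 gene UMIs in the adult library, with no Ighv11-2 UMI there. Without shared barcodes the neonatal share in marked droplets was 1.75% (1 of 57 UMIs, 0.0444 to 9.39) and the adult share 2.03% (9 of 443 UMIs, 0.933 to 3.82). All 61 kept neonatal droplets at shared barcodes had more gene UMIs in the neonatal library, with medians of 30537 there and 656 in the adult library, and 59 of the 86 neonatal droplets with over 20000 gene UMIs were among them. Leaving shared barcodes out therefore takes away most of the deepest neonatal droplets. By majority droplets the intervals of the marked neonatal (2.72 to 18.1) and adult shares (0.989 to 5.74) overlapped with shared barcodes included too. The ratio of these 2 shares was not computed, so a difference between the ages within marked droplets was not tested. The intervals over assigned droplets did not overlap. The neonatal share of assigned droplets rested on 4 droplets, and without shared barcodes it was 0% (up to 24.7%).

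**Figure D4:**
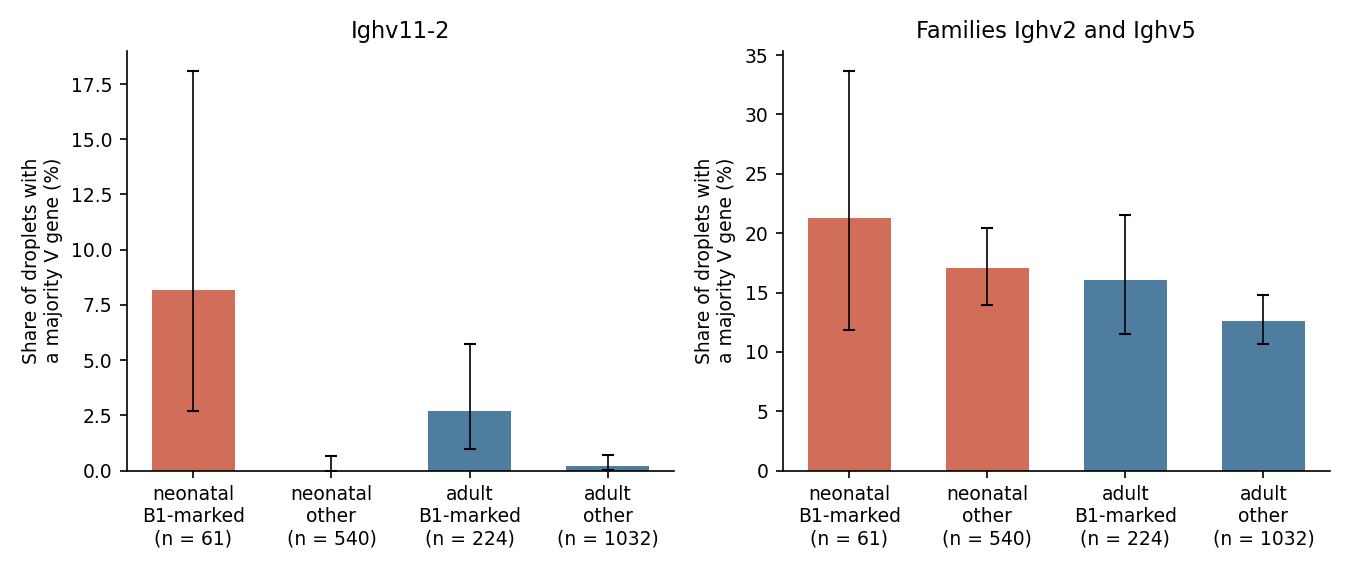
Share of droplets with a majority V gene that used Ighv11-2 (left) and the proximal families Ighv2 and Ighv5 (right), in percent, in B1-marked and other droplets of each library, with exact 95% intervals as error bars and the number of droplets under each bar. Ighv11-2 stands at 8.20% and 2.68% in marked and at 0 and 0.194% in other droplets, while the intervals for the proximal families overlap.

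The light chain partner known for Ighv11-2, a kappa V gene of the Igkv14 family, was found in a few droplets with an Ighv11-2 UMI. In the neonatal library 1 of 2 Ighv11-2 droplets with any Igkv UMI had this partner, against 1 of 287 other Ighv droplets (0.348%), and in the adult library 3 of 9 (33.3%, 7.49 to 70.1) against 5 of 684 (0.731%). The partner gene was present in 7 neonatal droplets, 3 of them marked, and in 19 adult droplets, 12 of them marked. Over assigned droplets the partner was in 1 of 4 neonatal droplets of Ighv11-2 and in 0 of 127 of other V genes. No adult droplet was assigned to Ighv11-2, and 3 of 322 assigned to other V genes had the partner. These comparisons were not matched for depth. Ighv12-3 made up 2 of 124 marked and 2 of 762 other neonatal UMIs, a log2 ratio of 2.62 (-1.17 to 6.41). In the adult library it made up 5 of 541 and 2 of 1732 UMIs, a log2 ratio of 3.0 (0.39 to 6.39). By majority droplets it stood at 1 of 61 marked and 1 of 540 other neonatal droplets. The adult counts were 3 of 224 (0.277 to 3.86%) and 1 of 1032 (0.00245 to 0.539%), with intervals that overlap. Ighv12-3 was not compared at like depth. Its known partner Igkv4-91 was in 0 of 2 neonatal and 1 of 5 adult Ighv12-3 droplets with an Igkv UMI. Igkv7-33 was in none of the 8 Ighv7-1 droplets with an Igkv UMI. It was present in 0 neonatal and 1 adult droplet of all those kept, so this pairing could hardly be seen here.

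The distal family Ighv1 was less used in marked than in other droplets of the adult library. Ighv1 was the majority V gene of 42.4% of marked adult droplets (95 of 224, 35.9 to 49.2) and 58.3% of the others (55.3 to 61.4). The neonatal shares were 34.4% (21 of 61, 22.7 to 47.7) and 46.3% (42.0 to 50.6), with intervals that overlap. Marked droplets were deeper, and the family shares were not compared at like depth. The proximal families held 21.3% of marked (13, 11.9 to 33.7) and 17.0% of other neonatal droplets. For the adult library these shares were 16.1% (36, 11.5 to 21.5) and 12.6%, and the intervals of marked and other droplets overlap at both ages. In the adult library Ighv6 held 8.04% (4.83 to 12.4) against 3.78% (2.70 to 5.13) and Ighv9 8.48% (5.18 to 12.9) against 4.26% (3.11 to 5.68). In the neonatal library Ighv6 went the other way, with 0 of 61 marked droplets (up to 5.87%) and 7.04% of the others (5.03 to 9.53). For Ighv6 at both ages and for Ighv9 in the adult library, the intervals of marked and other droplets overlap. Ratios of marked to other droplet shares were not computed for the families. Among the droplets that were not marked, the distal families held 49.6% (45.3 to 53.9) of neonatal and 62.9% (59.9 to 65.8) of adult droplets, and among marked droplets 37.7% (25.6 to 51.0) and 44.6% (38.02 to 51.4), and whether these differences between the ages differ was not tested.

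In each library as a whole most droplets with at least 2 Ighv UMIs showed 1 V gene, but most deep or B1-marked adult ones did not. The share with 1 V gene was 75.0% (120 of 160, 67.6 to 81.5) in the neonatal and 54.0% (265 of 491, 49.4 to 58.4) in the adult library. Among droplets of at most 10000 gene UMIs the shares were 82.1% (73.4 to 88.8) and 78.2% (71.9 to 83.6), with intervals that overlap. Above that depth they were 61.1% (46.9 to 74.1) and 36.5% (30.9 to 42.4). In B1-marked adult droplets only 33.6% (45 of 134, 25.7 to 42.2) showed 1 V gene. Of the droplets with several V genes, 10 of 40 neonatal and 62 of 226 adult ones had them all from 1 family. No doublet caller was run on these droplets, and the part of doublets, free RNA and misassigned reads in droplets with several V genes was not tested. Leaving out every droplet with more than 1 V gene, the Ighv11-2 share of marked majority droplets was 8.47% in neonatal and 3.05% in adult droplets.

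**Figure D5:**
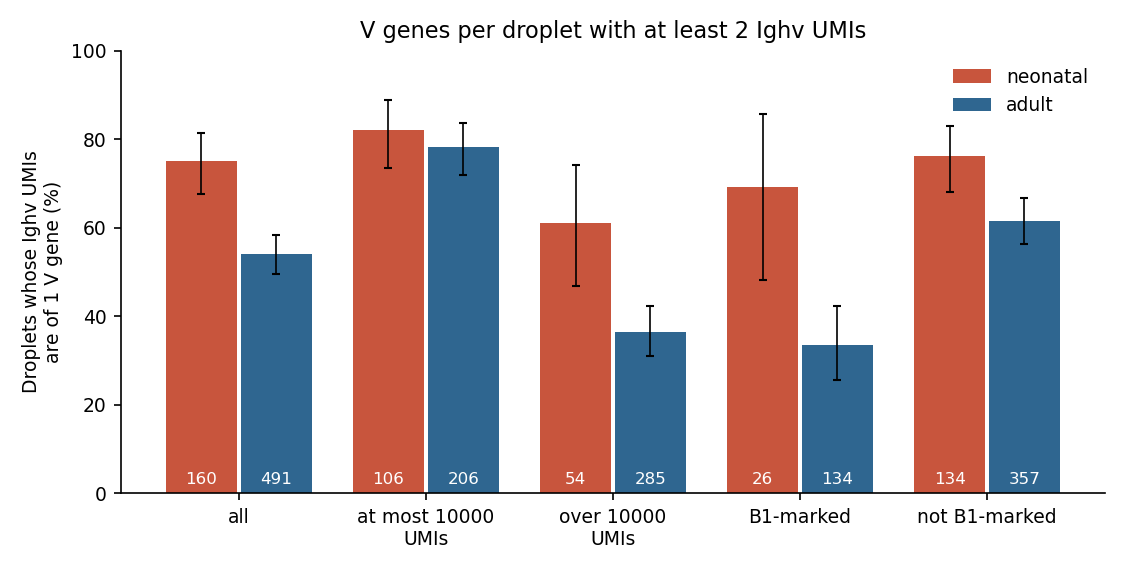
Share, in percent, of droplets with at least 2 Ighv UMIs whose Ighv UMIs are all of 1 V gene, by depth and by B1 marking, with exact 95% intervals as error bars and the number of droplets in white. The share is 82.1% and 78.2% at up to 10000 gene UMIs, and 61.1% and 36.5% above.

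Of the 21 other genes of heavy chain assembly and signaling, 10 had at least 50 UMIs. Among all genes with that many, 3.25% were past 2-fold toward the adult and 3.96% toward the neonatal library. Toward the adult library 4 of the 10 were past 2-fold, all class-switched constant genes: Ighg2b (16 and 293 UMIs), Ighg2c (0 and 3340), Ighg3 (50 and 291) and Igha (29 and 301). Most Ighg2c UMIs lay in the single Ighv14-4 droplet described above (3271 of 3340). Toward the neonatal library 2 were past 2-fold, namely Rag1, a subunit of the V(D)J recombinase, with 51 and 9 UMIs (log2 ratio -3.58, -4.79 to -2.54), and Vpreb3, a chaperone-like protein of immature B cells (381 and 177 CPM). Ighm had a log2 ratio of -0.47 and Ighd 0.60. Cd79a stood at -0.02 and Cd79b at -0.51. Rag2, Dntt (which adds bases at the junctions), Igll1, Vpreb2 and the 4 Ighj genes were at 0 in both libraries, and Vpreb1 had 7 and 15 UMIs.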

How the data were processed

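The authors aligned the reads to mm10 and counted UMIs with Cell Ranger (version 3.0.2 per the file headers), and the deposited values are raw UMI counts per gene and barcode, not normalized and not limited to called cells. Reads that map equally well to several genes are not counted, which can lower the counts of V genes with near-identical partners. Everything else was computed from these counts with Python 3.11.15, numpy 2.4.6, pandas 2.3.3 and scipy 1.17.1. CPM is relative to all gene UMIs of the droplets kept. The Igkv14 gene counted with Ighv11-2 was Igkv14-126. Antibody rows were not used here. Totals over all barcodes were 26866958 neonatal and 49500780 adult gene UMIs.

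Families follow the number after Ighv, and position and biotype the GENCODE M21 annotation. Shares have exact Clopper-Pearson intervals and ratios the exact conditional binomial interval. They cover counting error only, not mice or library preparation, and UMIs of 1 cell are not independent, so the intervals over droplets are the ones to read. With 1 library per age no p-value was computed. The routines were tested on simulated data. V genes were compared where both libraries together held at least 50 UMIs.

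Named V genes were the 12 with most assigned droplets, the 5 with the largest ratio of shares each way among those with at least 20 assigned droplets (3 qualified, all among the 12), the 5 with the largest ratio of marked to other droplets among those with at least 10 assigned marked droplets (none qualified, the highest number being 7), Ighv5-2, Ighv11-1, Ighv11-2, Ighv12-3, Ighv7-1, Ighv1-55 and Ighv1-53, and 21 pathway genes. Ighv10-1, Ighv1-22, Ighv1-18, Ighv14-4, Ighv5-9-1, Ighv8-8 and Ighv1-2 and the families and pairs singled out were chosen after their values were seen. The members and lists were chosen with earlier results of these data known. Alternatives changed the limits on depth, mitochondrial share and Cd79a, the droplets left out, the assignment, the marking and the scaling.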

Additional observations from a re-analysis of the deposited data

Results flagged for a closer look

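Ighv UMIs were also found outside the droplets kept: 392 UMIs of the neonatal library and 719 of the adult library. Of these, 158 neonatal and 309 adult UMIs lay in droplets with at least 500 gene UMIs that missed a limit on depth, mitochondrial share or Cd79a, and 234 and 410 in barcodes under 500 gene UMIs. Those droplets of at least 500 gene UMIs held 0 neonatal and 2 adult Ighv11-2 UMIs, among 60 and 86 V genes detected in all. They were flagged because the comparisons above do not use them.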

How the results depend on the processing

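No paired analysis was possible because each age has 1 library and no test was run. Over 24 values and 24 alternatives, 310 of 350 recomputed values stayed within the interval of the first value (counts within 1.5 times), 40 did not, and no ratio whose interval lies on 1 side of 0 changed sign. The log2 ratio of Ighv CPM was 0.16 at a limit of 8% mitochondrial UMIs and 0.56 per heavy chain constant UMI.

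The proximal share by UMIs was 17.2% (neonatal) with a log2 ratio of -0.29 without shared barcodes, 17.7% and 12.4% without the 1% of droplets with most Ighv UMIs, 17.5% (neonatal) with equal weight per droplet, and 17.5% and 11.8% in droplets of at most 10000 gene UMIs. Taken as the 60 V genes nearest to the constant genes it was 42.3% and 33.2% of UMIs, 38.3% and 31.4% of majority droplets, and 48.1% and 33.2% of assigned droplets. Thinned to 2000 UMIs per droplet, the adult share by UMIs was 10.7% (log2 ratio -0.88), the shares of majority droplets were 21.3% and 10.9% (log2 ratio -0.97), and those of the few assigned droplets 7.14% and 9.52% (log2 ratio 0.42, -2.92 to 6.04). With at least 4 UMIs for assignment the adult share was 29.6%, with fewer than 10 neonatal droplets. The alternatives covered the proximal share only, and the distal share was not recomputed over them.

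The Ighv11-2 share in marked neonatal droplets was 1.75% of UMIs, 2.50% of majority droplets and 0% of assigned droplets without shared barcodes. In droplets of at most 10000 gene UMIs the share of marked adult droplets was 0% of UMIs and 0% of majority droplets. In droplets of over 10000 gene UMIs the share of other adult droplets was 0% of UMIs and 0% of majority droplets. Where fewer than 10 marked UMIs or droplets were left, as after thinning, no value is given.

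The count of V genes past 2-fold, adult and neonatal, was 6 and 3 of 23 compared. Leaving out the 1% of droplets with most Ighv UMIs gave 3 and 0 of 16. At 8% mitochondrial UMIs it was 2 and 3 of 16, and at a minimum of 5000 gene UMIs 5 and 1 of 14. Without droplets with more than 1 V gene it was 3 and 2 of 14, and at up to 10000 gene UMIs 1 and 0 of 6. Fewer V genes were compared in these alternatives, so a lower count need not mean that the same V genes changed. By droplets assigned with at least 1 UMI it was 13 and 5 of 56, among V genes with at least 10 such droplets. No share over all genes is given for the alternatives. After thinning, and with 4 UMIs for assignment, no V gene was left to compare. The limits below and above 10000 gene UMIs and at 1 V gene, and the ratio by share of UMIs, were chosen after seeing the data. Few Ighv UMIs per droplet limit every value here, and causes were not tested.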
